A study of Mus musculus with 6 samples.

Results

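Transcripts of 10 genes that build the contractile ring and the central spindle of dividing cells were followed in Ter119-positive bone marrow cells. The genes were Myh9, Myh10, Cit, Anln, Ect2, Racgap1, Kif23, Prc1, Aurkb and Kif4, and every probe of the Illumina bead array whose symbol was exactly that of a gene was taken. This gave 20 of 45281 probes, and 17 of them, at least 1 for each of the 10 genes, were detected often enough to be tested. The samples came from 3 mice with a conditional knockout of mDia2 (KO) and 3 wild type mice (WT), all C57BL/6 and 4 months old, with 1 array per mouse. The labels name neither the Cre driver nor the deleted exons, and sorting was by Ter119, a surface antigen of erythroid cells from the late proerythroblast onward.

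At the end of mitosis, the central spindle forms where microtubules of opposite polarity overlap, and it activates the GTPase RhoA at the cell equator. RhoA then turns on formins such as mDia2, which lay down unbranched actin filaments, and kinases such as citron kinase, which act on nonmuscle myosin II, so that an actomyosin ring can constrict between the daughter cells. Erythroblasts also use actomyosin contraction when they expel their nuclei, and mDia2 is known as a formin of both cytokinesis and enucleation in this lineage.

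The arrays detected between 14815 and 16951 probes at a detection p under 0.05. The brighter Diaph3 probe, which measures the transcript of mDia2 (Diap3 in the table), gave 574, 341 and 486 in KO mice, against 1045, 965 and 969 in WT mice, in the units of average signal used throughout. All KO values lay below all WT values (log2 change -1.12, SE 0.18, limma adjusted p = 0.0917, which missed the threshold of 0.05). The limma adjusted p was 0.0139 without KO replicate 2, with a log2 change of -0.91, and 0.00274 without KO replicate 2 and WT replicate 3, with a log2 change of -0.93. It was 0.0164 with an intensity trend and 0.0236 with array weights, and it ranged up to 0.349 over all alternatives. Erythroid markers were bright, with 21 of 22 tested and all 21 detected on every array, among them Hbb-b1 at 42981 ± 408 in KO mice and 40317 ± 2626 in WT mice (SD, n = 3 each). Genes as a whole were shifted down, with a median log2 change, KO minus WT, of -0.11 over 11567 tested genes and 81.2% of them below 0. The arrays of KO replicate 2 and WT replicate 3 stood apart from their groups, with the lowest array weights (0.549 and 0.364). Changes of Diaph3, Myh9, Cit and Anln are also given without such arrays. Those of partner and marker genes are given only with all arrays, also where they rest on either of these mice. Markers of other cells also differed between the groups and are given beside the genes they accompany. In such bulk samples, fewer cells of a type and less RNA per cell cannot be told apart.

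The first question was whether these partners of mDia2 were expressed at another level when mDia2 was reduced. None of the 10 genes passed the adjusted threshold (limma adjusted p from 0.186 to 0.889), beside 0.104% of all tested genes called lower and 0% called higher. That background rested on few calls and was not stable, with 12 genes called here, 825 without KO replicate 2 and WT replicate 3, and 3 with a replicate block, while none of the 10 genes was called in any of these. At an unadjusted p under 0.05, only Myh9 was called, as lower, where 18.6% of all tested genes were called lower, 1.3% higher and 19.9% in either direction. The groups did not overlap for Myh9 alone among the brightest probes, with KO lower, beside 23.2% of all tested genes lower without overlap and 2.01% higher. The median log2 change of the 10 genes was -0.10, close to the -0.11 of all genes, and 9 of 10 lay below 0. That count of signs followed the scaling of the arrays, since 6 of 10 lay below 0 after quantile normalization and 3 of 10 after centring each array on the median of its tested probes, which moved the median of all genes to 0.01 and 0.07. The smallest exact two-sided permutation p that 3 against 3 mice allow is 0.1.

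**Figure D1:**
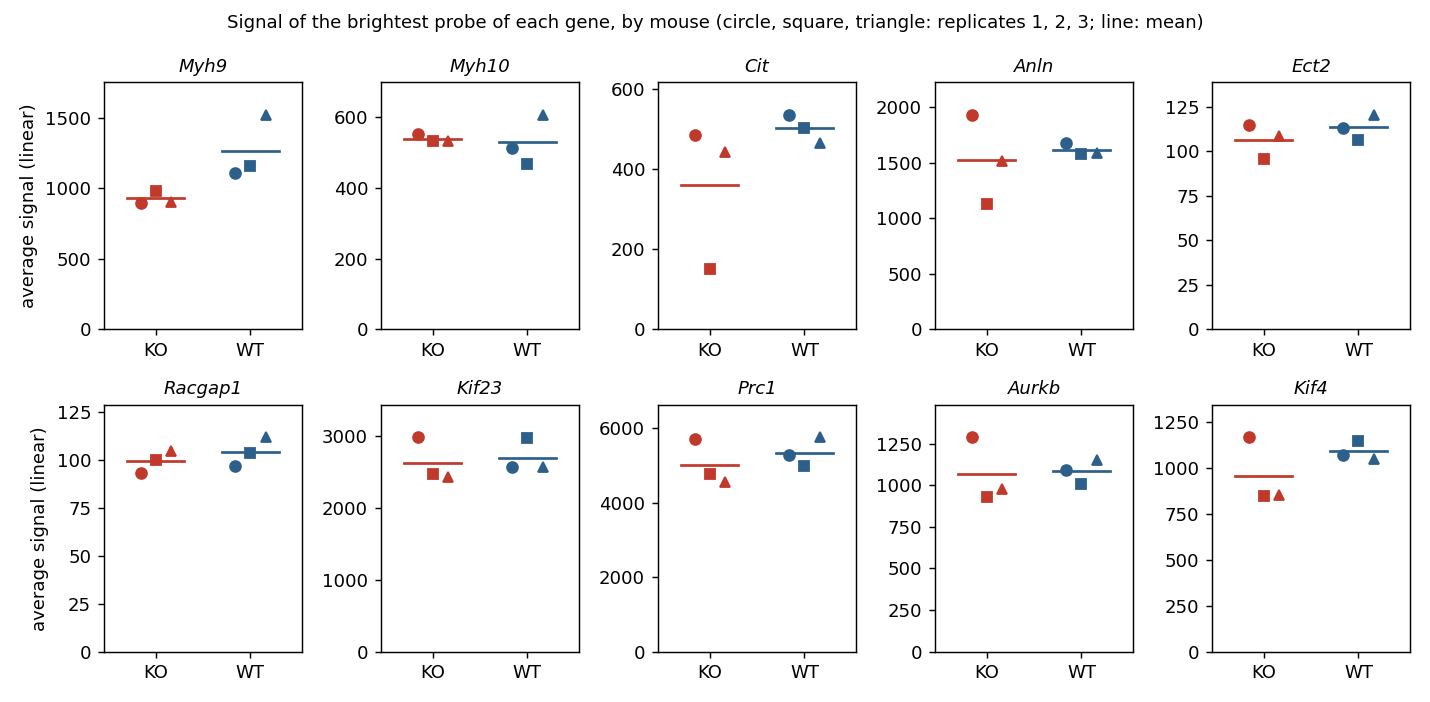
Average signal (linear scale from 0, arbitrary units) of the brightest probe of each of the 10 genes, by mouse, KO in red on the left and WT in blue on the right, with circles, squares and triangles for replicates 1, 2 and 3 and a line at each group mean. The groups are apart for Myh9, and KO replicate 2 is far below all other mice for Cit.

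Among the contractile ring genes, Myh9, which encodes the myosin IIA heavy chain, had the smallest p of the 10. Its brighter probe read 896, 983 and 905 in KO mice, against 1105, 1158 and 1522 in WT mice. All 3 KO values were below the lowest WT value, and WT replicate 3 was the highest array. The log2 change was -0.43 (SE 0.13, 95% interval -0.72 to -0.14, unadjusted limma p = 0.0101, limma adjusted p = 0.186), with an exact two-sided permutation p of 0.1. Without WT replicate 3 the log2 change was -0.29, and without KO replicate 2 it was -0.47. The animal numbers fall into a lower run of 2 KO mice and 1 WT mouse, within which the log2 change was -0.23, and a higher run of 1 KO mouse and 2 WT mice, within which it was -0.55. The dimmer Myh9 probe read 97.9, 112 and 102 in KO mice and 108, 113 and 126 in WT mice, not far above the median signal of undetected probes, 86.7 to 89.5, and its groups overlapped (log2 change -0.16, limma adjusted p = 0.374).

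Myh10, the heavy chain of nonmuscle myosin IIB, overlapped between the groups. It read 553, 533 and 533 in KO mice, against 514, 466 and 608 in WT mice, and the KO values lay inside the WT range (log2 change 0.04, 95% interval -0.21 to 0.28, limma adjusted p = 0.867). The within-array log2 difference of Myh9 minus Myh10 was 0.70, 0.89 and 0.76 in KO mice, against 1.11, 1.31 and 1.32 in WT mice. Every KO mouse was below every WT mouse in this difference, by 0.47 on average (exact two-sided permutation p = 0.1, the smallest possible), a contrast chosen after the values were seen. A second Myh10 probe was not detected on any array and was not tested.

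Leukocyte and platelet markers were also lower in KO mice. Of 24 neutrophil markers 22 were tested, 20 of these were detected on every array, and all 22 lay below 0 with a median log2 change of -1.30. Their summed signal ranged from 19215 to 34855 in KO mice and from 47278 to 76492 in WT mice, with the highest value in WT replicate 3, where Myh9 was also highest. WT replicate 3 was the highest array for genes as a whole too, with a median deviation of 0.09. The order of the other WT mice differed, since the neutrophil sum was 59674 in WT replicate 1 and 47278 in WT replicate 2, while Myh9 was lower in replicate 1. The order of the KO mice was the same for both, with neutrophil sums of 19215, 34855 and 25244 in KO replicates 1, 2 and 3. Monocyte and macrophage markers, with all 20 tested genes below 0 and a median of -0.66, summed to 4034 to 9855 in KO mice and 8267 to 16589.7 in WT mice, and their highest KO mouse was replicate 2, which also had the highest KO value of Myh9. Megakaryocyte and platelet markers, a lineage in which myosin IIA is the prevailing isoform, summed to 1828 to 1901 in KO mice and 2274 to 3239 in WT mice (12 tested genes, median -0.61). B lineage markers had a median of -0.51 over 10 tested genes, of which 2 fell past the adjusted threshold, among them Cd79b of the B cell receptor (log2 change -0.96, limma adjusted p = 0.00383), with summed signals of 1229.8 to 1284 in KO mice and 1608 to 2062 in WT mice, highest in WT replicate 1. The summed signals include the background of every probe, and undetected probes had a median of 86.7 to 89.5. Some markers were at that level in KO mice, such as Gp1bb at 86.3, 83.6 and 88.8. The part of these cells in the Myh9 difference was not tested.

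**Figure D2:**
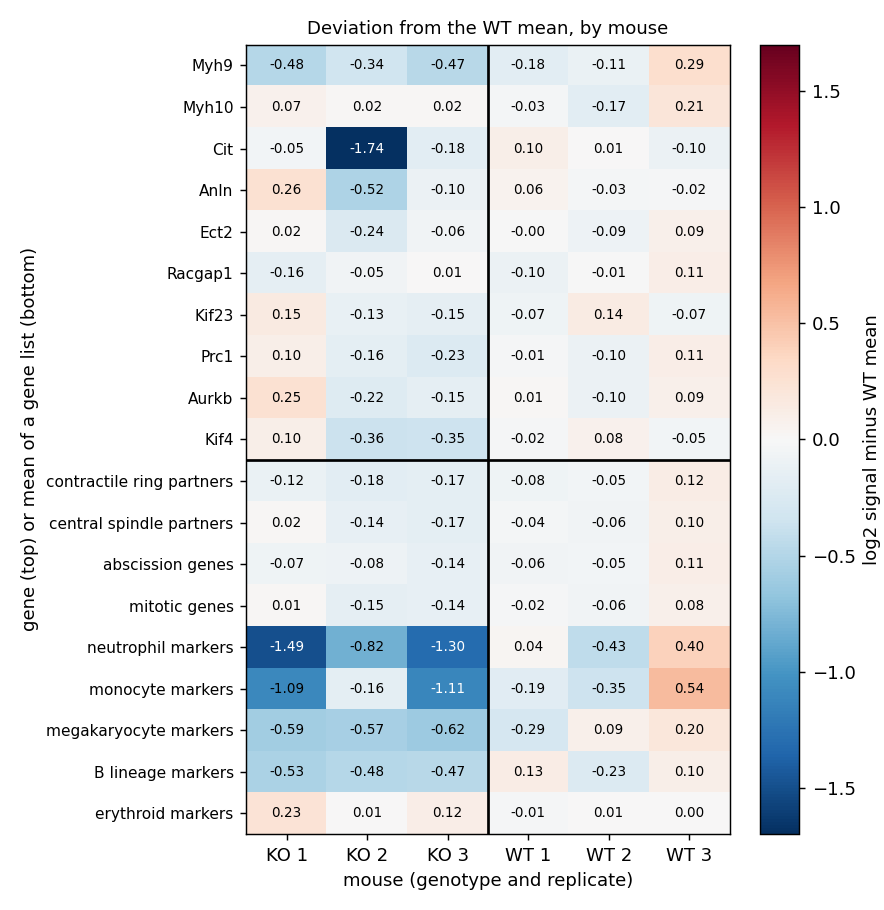
Log2 signal of each gene (brightest probe) minus its WT mean, by mouse, KO on the left and WT on the right, with the mean over the tested genes of partner and marker lists in the lower rows. Myh9 is lower in all 3 KO mice, as are the neutrophil, megakaryocyte and B lineage markers, while the value of -1.74 for Cit stands in KO replicate 2 alone.

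Cit encodes citron kinase, a RhoA effector that holds the contractile ring to the midbody. The probe with this symbol read 485, 149 and 443 in KO mice, against 536, 503 and 466 in WT mice. KO replicate 2 lay at -1.63 on the log2 scale relative to the mean of the other KO mice, and those overlapped the WT range. The log2 change of -0.66 (SE 0.40, 95% interval -1.59 to 0.28, limma adjusted p = 0.401) rested on that mouse, and without it the log2 change was -0.11. It was -0.99 within the lower run of animal numbers, which holds that mouse, and -0.13 within the higher run. Another pair of probes, listed under C030025P15Rik, which the gene table gives as a synonym of Cit, did not share the low value. The brighter one read 1002, 953 and 922 in KO mice and 941, 1131 and 966 in WT mice (log2 change -0.07, limma adjusted p = 0.672). The dimmer one read 756, 681 and 583 in KO mice and 605, 493 and 619 in WT mice, with a log2 change of 0.23 (limma adjusted p = 0.351). The probes of Cit therefore disagreed in KO replicate 2 and in the sign of the change, and their positions in the transcript were not analysed here.

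**Figure D3:**
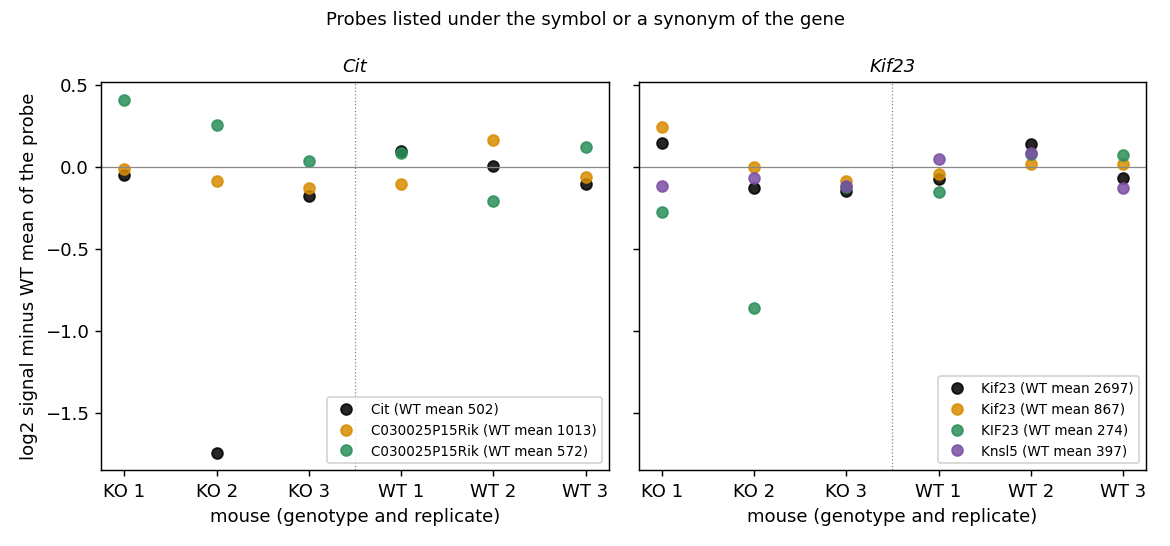
Log2 signal of every tested probe of Cit (left) and Kif23 (right) minus the WT mean of that probe, by mouse, KO on the left of each panel and WT on the right, with the symbol under which the table lists the probe. KO replicate 2 is low for the probe listed as Cit and the probe listed as KIF23, and near the other KO mice for the remaining probes.

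Anln encodes anillin, the scaffold that links RhoA, actin, myosin and septins in the ring. Its brightest probe read 1934, 1124 and 1511 in KO mice, against 1679.6, 1577 and 1590.4 in WT mice. The KO mice spread around the WT mice, with replicate 1 above all of them and replicate 2 and replicate 3 below (log2 change -0.12, SE 0.18, limma adjusted p = 0.727). Without KO replicate 2 the log2 change was 0.08. A dim Anln probe read 109.1, 99.6 and 109 in KO mice and 122, 117 and 111 in WT mice, with no overlap and a log2 change of -0.14 (limma adjusted p = 0.351). The third Anln probe was undetected on all arrays.

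Ect2, the exchange factor that loads RhoA with GTP at the equator, was close to background. Its brighter probe read 115, 96.0 and 109 in KO mice, against 113, 107 and 121 in WT mice, with KO replicate 2 lowest and the groups overlapping (log2 change -0.09, limma adjusted p = 0.593). The other Ect2 probe had means of 99.4 ± 3.56 in KO mice and 100.1 ± 0.742 in WT mice (SD, n = 3 each). Racgap1, the GTPase-activating subunit of centralspindlin, which recruits Ect2, read 93.0, 99.97 and 104 in KO mice and 96.7, 103 and 112 in WT mice, and was detected in 2 of 3 mice of each group. Its log2 change was -0.07 (limma adjusted p = 0.683), and its second probe was undetected throughout. The log2 change of a probe this near background understates that of its transcript, so the values of both genes carry little information.

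Kif23, the kinesin subunit of centralspindlin, was measured well above background. Its brightest probe read 2983, 2463 and 2428 in KO mice, against 2561, 2964 and 2565 in WT mice. KO replicate 1 and WT replicate 2 were the high mice, and the groups overlapped (log2 change -0.04, 95% interval -0.29 to 0.21, limma adjusted p = 0.849). A second probe, at 1028, 868 and 818 in KO mice and 843, 879 and 879.0 in WT mice, had a log2 change of 0.05 (limma adjusted p = 0.773). Outside the symbol rule, a probe written in capitals as KIF23 read 226, 151 and 251 in KO mice and 246, 288 and 288 in WT mice. KO replicate 2 was again the lowest mouse there, the log2 change was -0.42 (limma adjusted p = 0.27), and without that mouse it was -0.20. A probe listed under the synonym Knsl5 had a log2 change of -0.10 (limma adjusted p = 0.522).

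Of the midzone proteins, Prc1 bundles antiparallel microtubules and Kif4, a chromokinesin, carries Prc1 to microtubule ends. Prc1 read 5712, 4767 and 4547 in KO mice, against 5279, 4984 and 5761 in WT mice. KO replicate 1 lay among the WT mice while the other KO mice lay below them (log2 change -0.10, SE 0.11, limma adjusted p = 0.633). Its dim probe read 133, 115 and 122 in KO mice and 130.2, 139.9 and 143 in WT mice (log2 change -0.16, limma adjusted p = 0.336).

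Kif4 had 3 probes, and all 3 had negative log2 changes. The brightest read 1169, 847 and 855 in KO mice, against 1071, 1148 and 1049.97 in WT mice, so KO replicate 1 was the highest of all 6 mice and the other KO mice were the lowest (log2 change -0.20, SE 0.13, limma adjusted p = 0.421). The next read 292, 255 and 289 in KO mice and 319.5, 317 and 373 in WT mice, without overlap. The log2 change of this probe was -0.27, with a 95% interval of -0.50 to -0.04. Its unadjusted limma p was 0.0251 and its limma adjusted p = 0.218. The remaining probe had a log2 change of -0.19 (limma adjusted p = 0.324). Over all 17 tested probes of the 10 genes, 15 had log2 changes below 0, 3 were lower in KO without overlap, 0 were higher without overlap, and 0 passed the adjusted threshold in limma, while 2 had an unadjusted p under 0.05. Of all tested genes, 81.2% lay below 0, 23.2% were lower without overlap and 19.9% had an unadjusted p under 0.05. These shares are per gene, by its brightest probe, while the counts are per probe, with several probes for some genes. Read against them only roughly, the counts do not set the probes apart.

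Aurkb, the kinase of the chromosomal passenger complex that moves to the midzone in anaphase, read 1291, 930.1 and 977 in KO mice, against 1094, 1010.1 and 1149.8 in WT mice. KO replicate 1 was the highest mouse and KO replicate 2 the lowest (log2 change -0.04, 95% interval -0.34 to 0.27, limma adjusted p = 0.889). Aurkb averaged 1066 ± 196 in KO mice and 1085 ± 70.4 in WT mice (SD, n = 3 each).

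**Figure D4:**
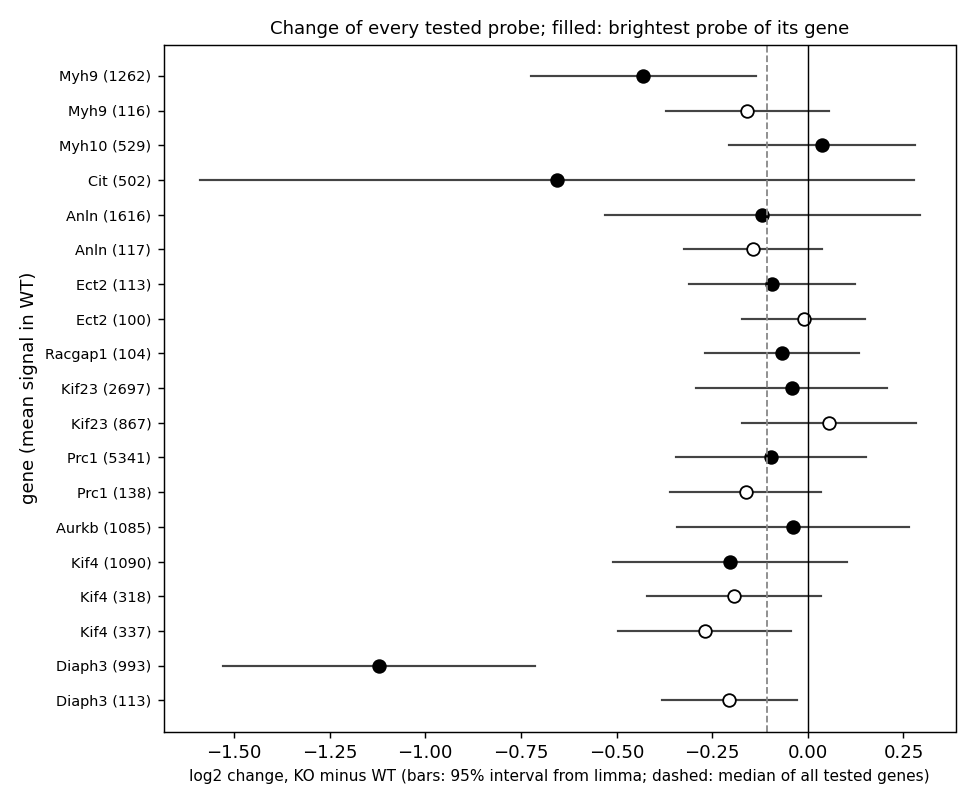
Log2 change, KO minus WT, of each of the 17 tested probes of the 10 genes and of the Diaph3 probes (x axis), with 95% limma intervals as bars, filled circles for the brightest probe of a gene and the mean WT signal in brackets. The intervals of the brighter Myh9 probe, of 1 Kif4 probe and of both Diaph3 probes lie below 0, and that of Cit is the widest.

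The KO mice differed among themselves in these genes. For 8 of the 10 genes KO replicate 1 was the highest KO mouse, and for 4 of these, namely Anln, Kif23, Aurkb and Kif4, it was the highest of all 6 mice. KO replicate 2 was the lowest KO mouse for 6 of 10 genes, where 24.2% of all tested genes had their lowest KO value in that mouse, and the lowest of all mice for 5 of 10. No share of all tested genes was computed for the counts of KO replicate 1. Nor was one computed for KO replicate 2 as the lowest of all mice, so whether these counts are unusual is not known. The median deviation of the 10 genes from their WT mean was 0.09 in KO replicate 1, -0.23 in KO replicate 2 and -0.15 in KO replicate 3, where the median over all tested genes was -0.10, -0.07 and -0.16. KO replicate 3 thus lay close to the shift of all genes. The exceptions to the low values of KO replicate 2 were Myh9 and Racgap1, and for Kif23 and Prc1 replicate 3 was lower still. The mitotic and proliferation genes had mean deviations of 0.01, -0.15 and -0.14 in KO replicates 1, 2 and 3. KO replicate 2 was the lowest KO mouse for 12 of the 31 tested genes of that list, beside the 24.2% of all tested genes. The proliferation marker Mki67, among these 12 and named after its values were seen, does not stand for the list. It read 8985, 5980 and 7801 in KO mice, against 8101, 7075 and 7709 in WT mice.

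Promoter stretches are shown because most of these genes are expressed in mitosis, which can be read against the cell cycle motifs in them. Many promoters of genes used in G2 and mitosis hold a cell cycle genes homology region, with the core TTTGAA, near the start site and a CCAAT box, the site of NF-Y, before it. In the RefSeq promoters of build GRCm38.p6, from 250 bases before to 50 bases after the start, 9 of the 10 genes had an entry. TTTGAA, on either strand, was found in 6 of these 9, at most 50 bases from the start in all 6. Of all 27025 genes with a promoter of this length, counted the same way, 20.2% held TTTGAA and 5.72% held it within 50 bases of the start. CCAAT, on either strand, was found in 7 of 9 genes and in 41.1% of all genes, and both in 5 of 9 genes and 7.97% of all genes. Matches of CCAAT that overlap TTTGAA were not excluded from these counts. The 6 promoters with TTTGAA are printed from 70 bases before to 36 bases after the start, 5′ to 3′ on the strand of the gene, with TTTGAA or its reverse complement TTCAAA, and CCAAT or ATTGG, in capitals.
Anln (chr9:22389171-22389276, minus strand): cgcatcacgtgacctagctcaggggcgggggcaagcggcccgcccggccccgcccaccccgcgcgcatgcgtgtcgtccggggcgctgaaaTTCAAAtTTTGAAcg
Ect2 (chr3:27153819-27153924, minus strand): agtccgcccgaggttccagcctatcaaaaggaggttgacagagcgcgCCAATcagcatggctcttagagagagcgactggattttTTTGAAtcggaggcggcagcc
Racgap1 (chr15:99651621-99651726, minus strand): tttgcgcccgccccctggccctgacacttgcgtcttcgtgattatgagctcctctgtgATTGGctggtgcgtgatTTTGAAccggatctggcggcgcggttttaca
Kif23 (chr9:61946764-61946869, minus strand): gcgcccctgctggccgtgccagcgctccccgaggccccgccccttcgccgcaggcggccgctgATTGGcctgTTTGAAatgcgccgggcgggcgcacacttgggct
Prc1 (chr7:80294381-80294486, plus strand): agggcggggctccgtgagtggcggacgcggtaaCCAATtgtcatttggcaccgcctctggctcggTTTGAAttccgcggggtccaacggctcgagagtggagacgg
Kif4 (chrX:100625995-100626100, plus strand): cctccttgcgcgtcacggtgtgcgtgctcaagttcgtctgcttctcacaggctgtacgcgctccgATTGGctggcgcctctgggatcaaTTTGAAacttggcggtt
In Ect2, Racgap1, Kif23, Prc1 and Kif4 the CCAAT box in these windows lies before TTTGAA, and in Anln 2 copies of TTTGAA stand on opposite strands with no CCAAT. For Ect2 and Prc1 the table lists a pair of start sites, and the window belongs to the one with the lower start coordinate.

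The promoters of Myh9 and Cit hold no TTTGAA in the 300 bases searched, nor does that of Myh10, and the same stretch is given for Myh9 and Cit.
Myh9 (chr15:77842140-77842245, minus strand): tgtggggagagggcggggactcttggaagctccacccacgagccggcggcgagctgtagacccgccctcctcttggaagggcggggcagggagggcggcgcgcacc
Cit (chr5:115845586-115845691, plus strand): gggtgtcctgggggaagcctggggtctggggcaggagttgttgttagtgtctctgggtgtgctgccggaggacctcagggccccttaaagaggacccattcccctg
Neither stretch has capitals, and the CCAAT matches of Myh9 lie further before the start. The CArG box, the site of the actin-responsive factor SRF, was matched in 0 of the 9 genes and in 1.81% of all genes. These matches are letters in a window and show no binding, and no match says only that the letters are not in this window. Of the genes in the lists below with a RefSeq promoter, TTTGAA was found in 11 of 16 central spindle partners, 21 of 32 mitotic genes, 2 of 20 contractile ring partners and 4 of 22 abscission genes.

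Partners of these proteins were counted in lists. Of 25 contractile ring partners 16 were tested, and 0 passed the adjusted threshold in limma, while unadjusted p values under 0.05 were found for 6 of 16 with KO lower and for 0 with KO higher, beside 18.6% and 1.3% of all tested genes. Their median log2 change was -0.15. The smallest p values belonged to Mylk, the myosin light chain kinase, at 102 ± 4.22 in KO mice and 123 ± 9.71 in WT mice (SD, n = 3 each), to Pfn1, profilin, which feeds actin to formins, to Diaph1, the formin mDia1, listed as Diap1, to Myl12b, a regulatory light chain of nonmuscle myosin, listed as Mylc2b, and to the RhoA exchange factor Arhgef11. Pfn1 read 1195, 1193 and 1594 in KO mice, against 1862, 1599 and 2463 in WT mice, so KO replicate 3 came within 5 units of WT replicate 2 (log2 change -0.56, limma adjusted p = 0.19). Myl12b, which binds the myosin heavy chains, read 526, 572 and 485 in KO mice, against 626, 634 and 927 in WT mice, without overlap and highest in WT replicate 3 like Myh9 (log2 change -0.45, limma adjusted p = 0.214). The log2 change was -0.21 for Diaph1 (limma adjusted p = 0.205) and -0.28 for Arhgef11 (limma adjusted p = 0.235). Diaph1 averaged 117 in KO mice and 135 in WT mice, and Arhgef11 97.2 in KO mice and 118 in WT mice. These signals, like that of Mylk, lay not far above the median of undetected probes, 86.7 to 89.5. Of the 16 tested partners, 10 were detected on every array. The neutrophil and megakaryocyte markers given with Myh9 had lower sums in every KO mouse as well, and their part in these values was not tested. Rock1, a kinase activated by RhoA and named after its values were seen, had a log2 change of 0.04. KO replicate 2 read 213 for Rock1, the lowest of the 6 mice. It was the lowest KO mouse for only 5 of the 16 tested partners, beside 24.2% of all tested genes.

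Of 21 central spindle and chromosomal passenger partners 16 were tested, with 0 past the adjusted threshold in limma, 2 with KO lower and 0 with KO higher before adjustment (p under 0.05, beside 18.6% of all tested genes with KO lower), and a median log2 change of -0.09. That share is no higher than among all genes. The 2 were the microtubule end-binding protein gene Mapre1 (log2 change -0.24, limma adjusted p = 0.261) and the kinetochore gene Cenpf. Cenpf read 341, 186 and 308 in KO mice, against 387, 348 and 400.0 in WT mice, with KO replicate 2 lowest as for Cit (log2 change -0.49, limma adjusted p = 0.264). Kif2c, a microtubule depolymerase, had a log2 change of -0.22, Cdca8, the passenger subunit borealin, -0.15, and the cyclin gene Ccna2 -0.09, all with groups that overlapped. Incenp, the scaffold that activates Aurora B, averaged 1475 ± 142 in KO mice and 1523 ± 97.1 in WT mice, and Birc5, survivin, 4439 ± 310.2 in KO mice and 4715 ± 356 in WT mice (SD, n = 3 each).

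Of 27 abscission and midbody genes 23 were tested, with 0 past the adjusted threshold in limma, 3 with KO lower and 0 with KO higher before adjustment, beside 18.6% of all tested genes with KO lower (median log2 change -0.08). The ESCRT genes Chmp6 and Vps25, of the machinery that cuts the bridge between daughter cells, had log2 changes of -0.34 and -0.20 (limma adjusted p = 0.187 and 0.242), and the exocyst gene Exoc1 -0.30 (limma adjusted p = 0.249). Chmp6 read 201, 217 and 196 in KO mice, against 254, 231 and 294 in WT mice, with no overlap. Vps4a, the ATPase that remodels ESCRT filaments, had a log2 change of -0.26 (limma adjusted p = 0.278) and the exocyst gene Exoc3 -0.22 (limma adjusted p = 0.335). Of 36 mitotic and proliferation genes 31 were tested, with 0 past the adjusted threshold in limma, 5 with KO lower and 0 with KO higher before adjustment, again beside 18.6%, and a median log2 change of -0.09. Those 5 were Espl1, separase (-0.32), Gtse1 (-0.24), the spindle kinesin Kif11 (-0.37), the anaphase activator Cdc20 (-0.28) and the topoisomerase Top2a (-0.22). Cdc20, which acts just before the central spindle forms, read 2159.6, 1899 and 1809 in KO mice, against 2317, 2208 and 2606 in WT mice, with no overlap (limma adjusted p = 0.214).

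**Figure D5:**
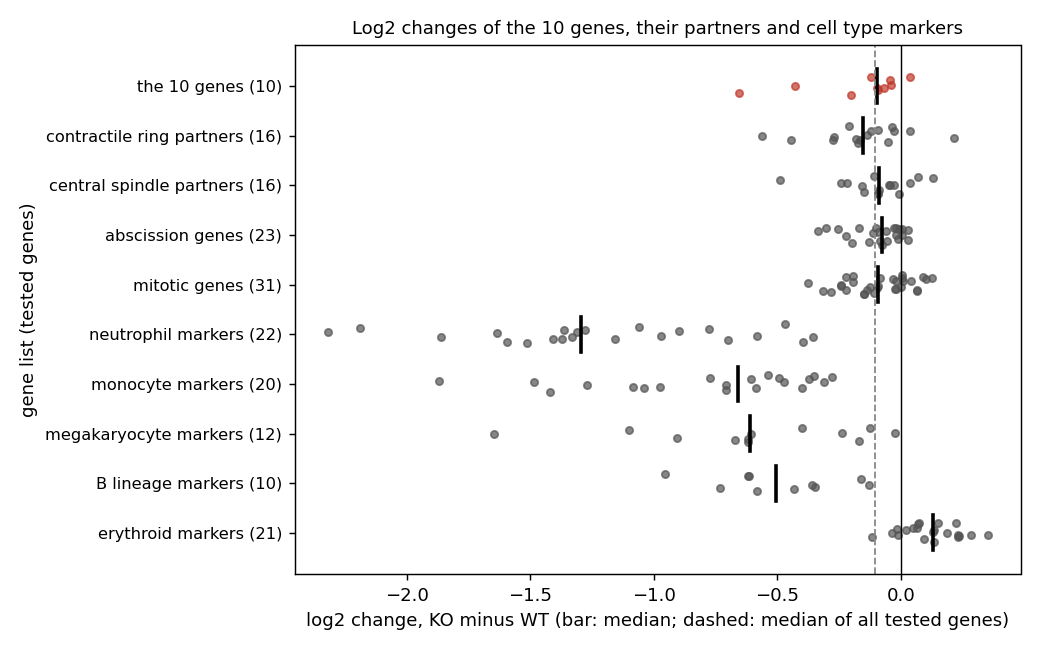
Log2 change, KO minus WT, of each tested gene (points, spread vertically at random for visibility) in the 10 genes, in 4 lists of their partners and in 5 lists of cell type markers, with the number of tested genes in brackets and a bar at the median. The 10 genes and the partner lists lie around the median of all genes, -0.11, and the neutrophil median lies at -1.30.

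Genes with the most similar pattern over the 6 arrays were found by Pearson r of log2 signals, given as a description with no test. The 6 arrays carry the shift of all signals described above, and 11567 genes were searched. Myh9 was most like Eif3b (r = 0.998), Serpinb1a (0.998) and Rabac1 (0.998), and 1769 tested genes had an r above 0.9 with it. For the other 9 genes that number lay between 52 and 229. Cit was most like Acsl1 (0.982), LOC386360 (0.982) and Cdk5rap2 (0.982), of which LOC386360 read 978, 337 and 791 in KO mice, against 999, 1077 and 1043 in WT mice, with the same low mouse. Anln was most like D7Ertd413e (0.985). Aurkb was most like Mtmr14 (0.994), EG666747 (0.992) and Phf19 (0.987), Prc1 was most like Ogfod2 (0.994), St3gal3 (0.991) and Fkbp14 (0.989), and Kif4 was most like Dnase1l1 (0.995), D7Ertd70e (0.990) and BC030863 (0.990). Kif23 was most like 1700007P14Rik (0.989), Ing2 (0.984) and 2900079J23Rik (0.974), and Myh10 most like A130052D22 (0.989), Arl2bp (0.988) and Rnf168 (0.980). The dim probes of Ect2 and Racgap1 were most like those of LOC100039001 (0.996), Tnrc6 (0.996) and 1110004P21Rik (0.993), and of 9530020O07Rik (0.995), 9230112E08Rik (0.995) and EG383436 (0.988), in that order of gene.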

How the data were processed

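Biotin-labelled cRNA from Ter119-positive bone marrow cells was hybridised to Illumina bead arrays, 1 per mouse, per the labels' protocols. Per the file headers, the authors deposited for each probe on each array an average signal, which is an intensity on a linear scale, together with the p-value of its detection, in a table named as normalized. The software, background correction and normalization method are not given in the sources used here. Undetected probes had a median signal of 86.7 to 89.5 on the arrays, so the deposited values keep a floor above 0. Whether a background had been subtracted before is not known. The other deposited table held the same intensity for all 45281 probes. Probes were tested where 3 or more of the 6 arrays had a detection p below 0.05, which left 15743. Their log2 signals were fitted as KO minus WT with lmFit and eBayes (limma 3.58.1, R 4.3.3). The p-values are two-sided, were adjusted by Benjamini and Hochberg's method across these 15743 probes, and were called below 0.05. A gene was represented by its brightest tested probe; 54 probes whose symbols had turned into dates or numbers, among them those of septins, were not named. No offset was added, and signals near background understate changes. The code was tested on simulated data.

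The 10 genes, the partner and marker lists, the naming rule and the alternatives were chosen with earlier results of these data known. Named were the 10 genes, Diaph3, up to 5 genes of smallest p from each partner list, up to 3 bright markers, and up to 3 genes most similar to each of the 10, of which some are not reported here; Mki67, Rock1, Incenp and Birc5 were added after their values were seen. Equal replicate numbers were not taken as pairs in the main fit. Deviations from the group means correlated at 0.218, -0.278 and -0.188 for mice of equal number, and at 0.341 for KO replicate 2 with WT replicate 3. With 3 mice in each group, such values cannot show whether mice were paired. The series design calls the mice biological replicates. The 17 alternatives covered scaling, an offset of 16, probe filters, array weights, an intensity trend in the variance, the run of animal numbers, a replicate block, the mean of probes and mice left out. Synonyms and promoters came from RefSeq tables of GRCm38.p6, and the position of probes was not analysed here.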

Additional observations from a re-analysis of the deposited data

How the results depend on the processing

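None of the 10 genes passed the adjusted threshold in limma under any of the 17 alternatives, with the lowest adjusted p, 0.0552, for Myh9 with WT replicate 3 and KO replicate 2 both left out. Myh9, Cit and Kif4 kept a negative log2 change in every alternative, from -0.52 to -0.25 for Myh9, -0.96 to -0.11 for Cit and -0.36 to -0.03 for Kif4. The number of genes with an unadjusted p under 0.05 was 2 when arrays were quantile normalized or centred on the median of tested probes (Myh9 lower and Myh10 higher, against 1 lower and 0 higher as reported). It was 2 with the mean of probes (Myh9 and Kif4), and between 1 and 2 with each mouse left out, the 2 without KO replicate 1. Of all tested genes, 15.2% had such a p after quantile normalization, 17.5% after centring and 19.6% with the mean of probes. That share was 13.3% without KO replicate 1, 10.6% to 25.8% with each mouse left out, and 13% with the replicate block. Beside these shares, counts of 1 or 2 among 10 genes do not set the genes apart. The median log2 change of the 10 genes was 0.079 after centring, and between -0.19 and -0.04 with each mouse left out. The sign turned in 22 of 168 recomputed changes of single genes. After quantile normalization Ect2 was at 0.011, Kif23 at 0.0060 and Aurkb at 0.065. After centring Anln was at 0.055, Ect2 at 0.080, Racgap1 at 0.11, Kif23 at 0.13, Prc1 at 0.0775 and Aurkb at 0.14. Aurkb was at 0.038 with array weights, and Kif23 at 0.0064 with the mean of probes. With 1 mouse left out, the log2 change of Anln lay between -0.309 and 0.082, that of Kif23 between -0.138 and 0.028, that of Aurkb between -0.1845 and 0.052 and that of Myh10 between -0.050 and 0.141. With WT replicate 3 and KO replicate 2 both left out, Anln was at 0.071, Ect2 at 0.024 and Aurkb at 0.095. The replicate block gave 0 genes past the adjusted threshold and 1 with an unadjusted p under 0.05, as reported. Whether mice of equal replicate number were pairs is not known. Over all tested genes the block gave 3 calls in place of 12. That count was 148 with array weights, 34 after centring, 105 when the variance followed intensity and 152 without KO replicate 2. It was 33 without WT replicate 2, 825 without KO replicate 2 and WT replicate 3, and 3 to 14 in the other alternatives. The cause of these shifts was not tested. Ect2 and Racgap1 had no value where detection on all 6 arrays was required. Signal over background limits these 2 genes, and the number of arrays limits all values.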
